A study of Saccharomyces cerevisiae with 6 samples.

Results

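Splicing of transcripts for alpha-tubulins, for factors that fold tubulin and for a dynein light chain was followed in budding yeast when the spliceosomal ATPase Prp2 was inactivated. The set comprised all 7 introns of 6 genes, chosen by gene name and function, out of 309 introns of 298 genes in the count table. The genes were TUB1 (YML085C), TUB3 (YML124C), GIM4 (YEL003W), GIM5 (YML094W), CIN2 (YPL241C) and DYN2 (YDR424C), the last with 2 introns. The assay was MPE-seq (multiplexed primer extension sequencing). It reverse-transcribes chosen transcripts from gene-specific primers placed just after an intron, and each read then shows the intron as present or removed. There were 3 WT libraries (strain EJS1) and 3 prp2-1 libraries (strain EJS7), replicates A to C of each. Cultures of both strains grew in YPD at 25 °C and spent 15 minutes at 37 °C before collection, so the heat shift was common to both groups. Strain backgrounds beyond these names are not given in the labels. The allele prp2-1 is temperature-sensitive, and PRP2 itself had no row in the table. Counted reads per library ranged from 1612685 to 2671271. The labels do not say how the replicates were separated beyond their letters, so p-values measure only the spread between these libraries, which may be technical. Those of the edgeR fits (software for count data) use that spread pooled in part over all introns tested. A very small p-value therefore does not rest on the 3 against 3 libraries of its own intron alone.

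Microtubules are polymers of alpha- and beta-tubulin. Nascent tubulin is passed by the prefoldin complex to the cytosolic chaperonin, and the heterodimer is then assembled by dedicated tubulin cofactors. In budding yeast, dynein acts on astral microtubules to move the spindle into the bud neck. An intron is recognised by its 5′ splice site, a branch site whose bulged adenosine is the attacking nucleotide, and its 3′ splice site. Prp2 remodels the assembled spliceosome just before the first catalytic step, so pre-mRNA is the species that remains when it fails.

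The member introns are shown because they differ in the signals that the spliceosome reads. The positions and sequences are those of RefSeq build R64, the build that the submitters' processing notes also name. Each is written 5′ to 3′ on the sense strand, and capitals mark the first 6 bases, the branch motif TACTAAC where present, and the last 3 bases.
TUB1, chrXIII:99260-99375, minus strand: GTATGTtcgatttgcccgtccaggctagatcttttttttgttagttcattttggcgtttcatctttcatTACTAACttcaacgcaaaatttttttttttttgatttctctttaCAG
TUB3, chrXIII:23361-23658, minus strand: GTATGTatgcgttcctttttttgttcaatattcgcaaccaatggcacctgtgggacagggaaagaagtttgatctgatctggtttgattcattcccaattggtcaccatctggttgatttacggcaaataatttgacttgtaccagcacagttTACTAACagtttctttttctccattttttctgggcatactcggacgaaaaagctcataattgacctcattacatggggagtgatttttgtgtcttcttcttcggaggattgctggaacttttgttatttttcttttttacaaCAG
GIM4, chrV:148195-148282, plus strand: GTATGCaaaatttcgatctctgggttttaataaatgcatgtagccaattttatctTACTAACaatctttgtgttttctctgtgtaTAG
GIM5, chrXIII:82291-82373, plus strand: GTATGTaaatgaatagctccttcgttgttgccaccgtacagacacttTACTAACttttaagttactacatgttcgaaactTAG
CIN2, chrXVI:96154-96233, minus strand: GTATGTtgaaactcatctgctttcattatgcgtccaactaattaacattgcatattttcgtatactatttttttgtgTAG
DYN2 intron 1, chrIV:1319721-1319816, minus strand: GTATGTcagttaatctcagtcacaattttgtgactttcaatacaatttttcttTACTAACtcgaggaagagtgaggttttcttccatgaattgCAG
DYN2 intron 2, chrIV:1319618-1319697, minus strand: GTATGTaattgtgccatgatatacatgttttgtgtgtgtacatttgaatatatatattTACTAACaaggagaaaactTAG

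All 7 introns interrupt the coding sequence near its start. The coding exon before the intron was 25 bases in TUB1, TUB3 and CIN2, 19 bases in GIM4 and 16 bases in GIM5. In DYN2 it was 25 bases before intron 1, and the exon between both introns was 23 bases. The median first coding exon of the 269 placed genes was 30 bases. The introns of GIM4, GIM5, CIN2, DYN2 (both) and TUB1 were 80 to 116 bases long and that of TUB3 298 bases, against a median of 139 bases over 279 placed introns and 97 bases over the 189 of these outside ribosomal protein genes. GIM4 begins with GTATGC, as do 8 of the 279 placed introns (2.87%), while the other 6 members begin with GTATGT, which 204 introns share (73.1%). The intron of CIN2 holds no TACTAAC on its sense strand and no 7-base stretch within 1 mismatch of it, whereas 230 of 279 placed introns hold the motif (82.4%). From the branch adenosine to the end of the intron there were 139 bases in TUB3, 41 in TUB1, 37 in DYN2 intron 1, 30 in GIM5, 27 in GIM4 and 16 in DYN2 intron 2. The median of that distance was 34 bases over introns with the motif. These matches describe the letters only, and no branch site was mapped in these data.

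**Figure D1:**
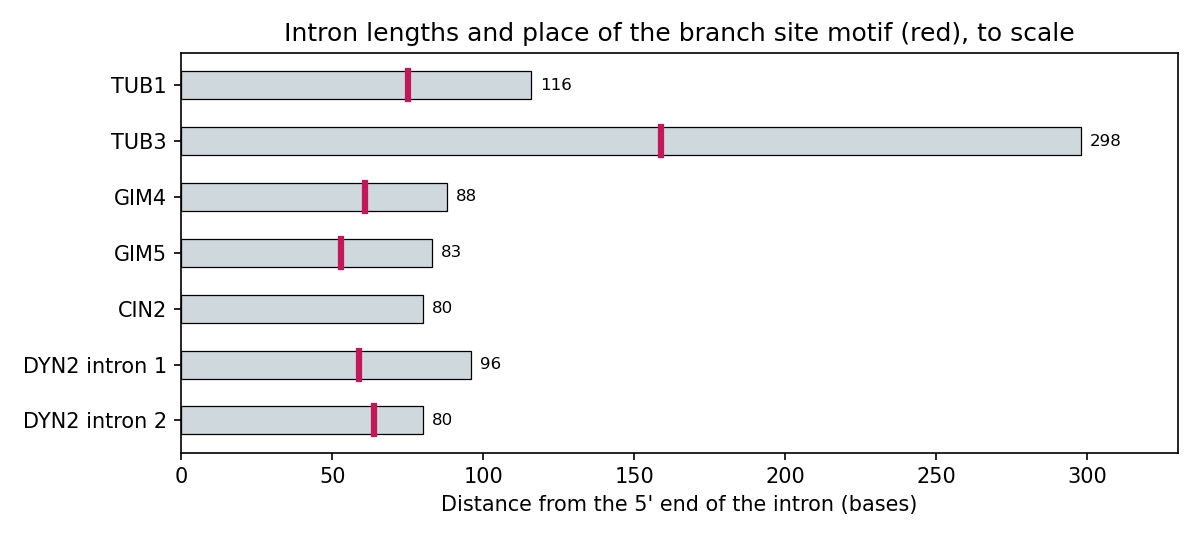
Each bar is 1 member intron drawn to scale from its 5′ end (x axis, bases), with its length at the right and the TACTAAC adenosine in red. TUB3 (298 bases) stands out by length, DYN2 intron 2 by a branch adenosine 16 bases from its end, and CIN2 has no motif to mark.

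The mating type gene HMRA1 and genes of meiosis were looked at as markers of cell type or state. Of their 7 tested introns, total reads were higher in prp2-1 in 3 and lower in 1 (edgeR adjusted p under 0.05), against 19.7% and 23.7% of all tested introns, and the largest rise was in REC114 (log2 5.05). The 14 introns, the 7 untested ones included, held 2746 to 3162 RPM in WT (RPM, reads scaled to 1000000 counted reads of the library) and 230 to 446 in prp2-1, mostly through HMRA1 intron 1, with 16583 spliced reads in WT and 8 in prp2-1. The 12 introns other than those of HMRA1 held 122 to 153 and 229 to 445 RPM. HOP2 intron 1 was at 0 in WT, and HMRA1 intron 2 and REC102 were at 0 in prp2-1. The strains differed in HMRA1 reads as well as in the PRP2 allele. Effects of such a strain difference on other introns cannot be told apart from those of prp2-1. The part of these markers in the results on the tubulin, prefoldin and dynein genes was not tested.

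The first comparison asked how far each intron was left unspliced in prp2-1. An intron was tested at a mean of at least 10 reads, spliced plus unspliced, over the 6 libraries, which 274 introns passed, among them 6 of the 7 members. DYN2 intron 1 did not pass, with 0 reads in all WT libraries and 1, 1 and 2 unspliced reads in prp2-1 A, B and C. The unspliced percent is the unspliced count over both counts. The ratio of unspliced to spliced reads rose in all 6 tested members (edgeR quasi-likelihood test, Benjamini-Hochberg adjusted p under 0.05), where 93.4% of all tested introns rose, so the count does not set the members apart. The libraries of both groups did not overlap in unspliced percent for 5 of the 6, all but GIM4, against 92.0% of tested introns. The median log2 change was 3.41 over the 6 members and 4.64 over all 274 introns. Sums of reads below carry counting intervals at 95%, which cover counting error only.

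TUB1 encodes the major alpha-tubulin of budding yeast. Its intron was 3.61%, 3.26% and 1.44% unspliced in WT A, B and C and 45.7%, 42.7% and 39.9% in prp2-1 A, B and C. Every prp2-1 library lay far above every WT library, and WT C was the lowest of the WT libraries. The mean rose from 2.77% ± 1.16 to 42.8% ± 2.93 (SD, n = 3 libraries here and below), a log2 change of the ratio of 4.80 ± 0.37 (SE, edgeR adjusted p = 1.48e-11). The WT SD exceeded the 0.306 percentage points that counting error alone gives at this depth.

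TUB3 encodes the minor alpha-tubulin. It was 4.22%, 4.04% and 3.59% unspliced in WT A, B and C, a narrow range. In prp2-1 A, B and C it was 39.5%, 28.7% and 34.1%, with no overlap between the groups and replicate B lowest. Its ratio changed by 3.65 ± 0.32 on the log2 scale (SE, edgeR adjusted p = 1.18e-10). TUB1 thus ranked 130th and TUB3 192nd of the 274 introns by size of change.

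TUB1 and TUB3 are paralogues, and their coding sequences are 80.9% identical in a global alignment. Their 25-base first exons share 23 bases, and the first 100 bases of their second exons share 78, with no identical run over 8 bases within that stretch of the second exon. Their introns, of 116 bases in TUB1 and 298 in TUB3, had 83 identical positions in a global alignment of 298. Most of the TUB3 intron faced gaps there, so this count does not measure how far the introns differ. In WT the unspliced to spliced ratio of TUB1 lay below that of TUB3 in each library, by 0.23, 0.32 and 1.34 on the log2 scale in A, B and C. In prp2-1 the order was the opposite in each library, with TUB1 above TUB3 by 0.37, 0.89 and 0.36. The log2 difference went from -0.63 ± 0.62 to 0.54 ± 0.30 (SD), a shift of 1.17, with no overlap between the groups. The exact two-sided permutation p was 0.1, the smallest that 3 against 3 libraries can give, and 0.2 adjusted over the 2 pairs of introns with reads in both groups (0.15 over the 3 planned), so the design could not bring this shift past a threshold of 0.05. The log2 quotient of TUB1 to TUB3 spliced reads was -0.81 ± 0.10 in WT and -0.83 ± 0.15 in prp2-1, a difference smaller than the SD of either group. The quotient of their unspliced reads went from -1.44 ± 0.58 to -0.29 ± 0.27, again without overlap. Both quotients were computed after the shift was seen, and the exact two-sided permutation p was 0.9 for spliced and 0.1 for unspliced reads.

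GIM4 and GIM5 each encode a subunit of prefoldin. In unspliced to spliced ratio they lay further apart than TUB1 and TUB3, in both groups. GIM5 was 2.17%, 2.75% and 6.31% unspliced in WT A, B and C, from 92, 109 and 111 reads. In prp2-1 it was 28.2%, 20.5% and 37.1%, from 78, 83 and 62 reads. All prp2-1 libraries were higher, and the log2 change of 3.29 ± 0.63 (SE, edgeR adjusted p = 3.16e-05) has a wide error beside these low counts, and was 3.89 without WT replicate C. In GIM4, by contrast, nearly every read was unspliced in WT already, at 99.95%, 99.7% and 99.7% in A, B and C. WT A, B and C held 1, 8 and 6 spliced reads beside 2024, 2590 and 2369 unspliced ones. In prp2-1 A and B there were 0 spliced reads among 1419 and 1729, which allows a spliced share of up to 0.211% and 0.174%, and in C there was 1 among 1554. The values of both groups overlapped, since WT A was above prp2-1 C. The change of the ratio passed the test (log2 2.85 ± 0.97, SE, edgeR adjusted p = 0.00775) but rests on 16 spliced reads in all, with a summed ratio 10.1-fold higher and a counting interval of 1.55 to 425. The log2 change ranged from 2.36 to 4.67 when 1 library was left out, the latter without prp2-1 replicate C, and the call was lost with the drawn counts (2.39, adjusted p = 0.104). GIM4 was 1 of 13 tested introns over 98% unspliced in WT, 3 of which had a higher ratio in prp2-1. Most of the 13, COX5B and HAC1 among them, were 100% unspliced in both groups and so could not be called higher. The planned comparison of GIM4 with GIM5 gave a shift of -1.27 in their log2 difference (exact two-sided permutation p = 0.5, also 0.5 after adjustment), with overlapping groups. A pseudocount of 0.5 was added to each count, and it set the ratio of GIM4 in prp2-1 A and B, which had 0 spliced reads. The size and direction of this shift are therefore not read as a result. The summed ratio rose 10.1-fold in GIM4 and 9.63-fold in GIM5.

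CIN2 encodes a tubulin cofactor related to the mammalian cofactor C. It was the most sparsely covered of the 6 tested members, with 27, 31 and 45 reads in WT A, B and C and 12, 35 and 9 in prp2-1. It was 22.2%, 9.68% and 15.6% unspliced in WT and 58.3%, 37.1% and 44.4% in prp2-1. The groups did not overlap, although exact binomial intervals of single libraries did, such as 8.62% to 42.3% in WT A and 21.5% to 55.1% in prp2-1 B. The mean went from 15.8% ± 6.28 to 46.6% ± 10.8, the smallest log2 change of the set at 2.11 ± 0.86 (SE, edgeR adjusted p = 0.0244). Its SD in WT was close to the 6.29 percentage points given by counting alone. The call was lost without WT replicate B (log2 1.83, adjusted p = 0.111), without prp2-1 replicate A (1.80, adjusted p = 0.0909) and with DESeq2 (2.22, adjusted p = 0.0560).

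DYN2 encodes the dynein light chain of the LC8 type, which is also a component of the nuclear pore. Its intron 2 was 10.3%, 13.1% and 34.4% unspliced in WT A, B and C and 68.1%, 65.9% and 76.6% in prp2-1 A, B and C. The groups stayed apart, but WT C was far above A and B, with 461 spliced reads beside 1095 and 1465. The mean went from 19.3% ± 13.2 to 70.2% ± 5.63, a log2 change of 3.53 ± 0.44 (SE, edgeR adjusted p = 6.01e-08). Without WT C the change was 4.18. Intron 1 had no read in WT, so the planned comparison of both DYN2 introns would there have measured the pseudocount, and no value is given.

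**Figure D2:**
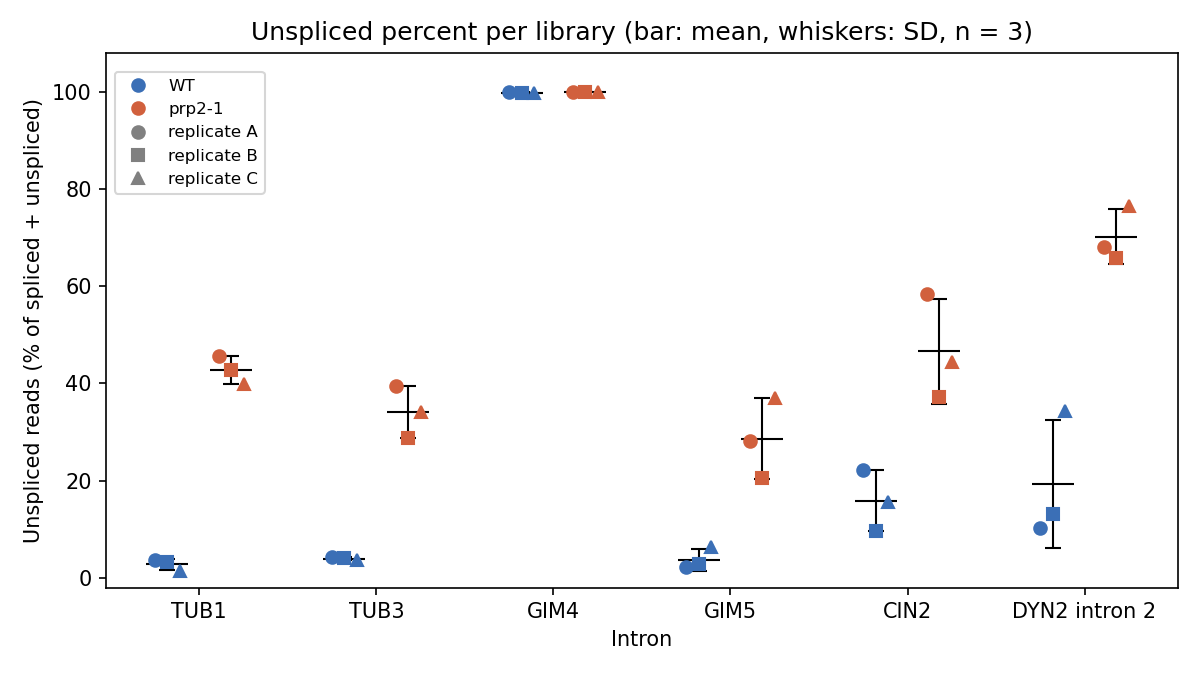
Points are the unspliced percent of each library (y axis) for the 6 tested introns, WT in blue and prp2-1 in orange, symbols by replicate, with the mean and SD of 3 libraries. TUB1 and TUB3 start under 5% in WT, GIM4 is above 99% in both groups, and WT C of DYN2 intron 2 stands at 34.4%.

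The spliced percent of DYN2 intron 2 also depended on which deposited table was read. A second table by the authors holds counts after each library was thinned at random to 200000, 400000 or 800000 reads, 5 times per depth. For TUB1 and TUB3 the drawn spliced counts lay close to those expected from the full table. For DYN2 intron 2 the mean of 5 draws of 800000 reads was 654, 1721 and 1038 spliced reads in WT A, B and C, against 367, 411 and 103 expected. In prp2-1 A, B and C it was 530, 324 and 1455, against 223, 245 and 300. In WT B, WT C and prp2-1 C the drawn mean even exceeded the full count, which a draw from the same counted reads could not give. The draws of 1 library also disagreed with each other. In WT C the spliced count ranged from 170 to 2327 over 5 draws of 800000 reads and from 161 to 627 over 5 draws of 200000 reads, so that the lowest count hardly moved with depth. The unspliced count in those deeper draws ranged only from 44 to 57. The variance over the mean of the spliced count between draws had a median of 434 over the 6 libraries, against 0.663 for TUB1 and 0.501 for TUB3, and only DYN2 intron 2, SAR1 and SNR17A of 189 introns compared were over 10. Unspliced reads of DYN2 intron 2 lay within the usual spread, with a median of 0.602.

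**Figure D3:**
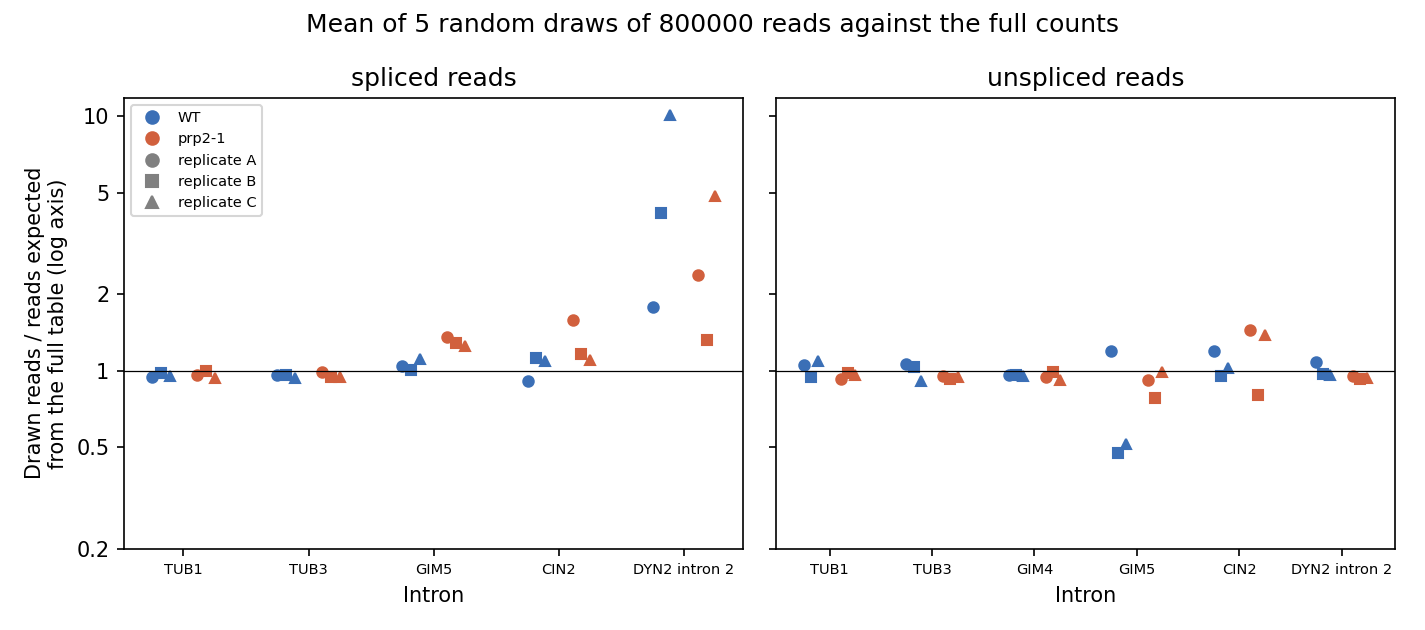
The y axis (log) gives the mean count of 5 draws of 800000 reads over the count expected from the full table, for spliced (left) and unspliced (right) reads, 1 point per library, without the spliced reads of GIM4. Spliced reads of DYN2 intron 2 lie above 1 in all 6 libraries, up to 10.1 in WT C, while its unspliced reads and those of TUB1, TUB3 and GIM4 lie near 1.

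In the draws of 800000 reads, DYN2 intron 2 was 4.89% ± 1.58 unspliced in WT and 47.5% ± 9.44 in prp2-1. Both values lay below those of the full counts, and the direction was the same. Its ratio changed by 4.06 in the first of these draws (edgeR adjusted p = 1.26e-08).

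The next comparison asked whether the ratio moved through its unspliced or its spliced reads. Levels are in RPM, and since each gene has its own primer, they were compared between libraries and not between genes. Unspliced reads rose in 4 of 6 members, against 90.9% of tested introns, and fell in 1, GIM4, against 2.19%. The same 4 and 1 had groups without overlap, where 91.2% and 3.28% of tested introns did. Spliced reads fell in 5 of 6, against 57.7%, and rose in 0, against 6.2% (also 0 at an unadjusted p under 0.05 in edgeR, and 0 with DESeq2). The median log2 change of spliced reads was -0.93 over the members and -0.91 over all tested introns, so the size of the fall does not set the members apart. Groups of spliced levels did not overlap in the same 5, against 62.0% of introns that were lower and 8.03% that were higher. In these data, fewer molecules of a transcript per cell and a lower share among the targeted transcripts cannot be told apart.

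The fall of spliced alpha-tubulin reads was alike in both genes. TUB1 had 1192, 1332 and 1412 RPM of spliced reads in WT A, B and C and 658, 697 and 792 in prp2-1, and TUB3 had 2250.3, 2225 and 2399 and then 1250.2, 1312 and 1248. In neither gene did the groups overlap. The log2 change of the spliced level was -0.84 ± 0.12 in TUB1 (SE, edgeR adjusted p = 0.000124) and -0.81 ± 0.08 in TUB3 (adjusted p = 1.19e-05). Unspliced reads of TUB1 went from 44.6, 44.9 and 20.7 RPM to 555, 519 and 525, a log2 change of 3.91, and those of TUB3 from 99.2, 93.8 and 89.4 to 817, 529 and 646, a log2 change of 2.85.

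Total reads, spliced plus unspliced, of TUB1 overlapped between the groups, with 1349 ± 101 RPM in WT and 1249 ± 59.1 in prp2-1 (log2 -0.07 ± 0.12, SE, edgeR adjusted p = 0.649). Total reads of TUB3 were lower in prp2-1 in every library, at 2385 ± 90.3 and 1934 ± 119 RPM (log2 -0.27 ± 0.09, SE, edgeR adjusted p = 0.0469). Leaving out WT A, WT B or WT C ended that call (adjusted p = 0.0972, 0.130 and 0.152), as did leaving out prp2-1 A or prp2-1 B (0.0520 and 0.0921), or a fit with RLE factors (0.0817), no filter (0.0614) or the drawn counts (0.0930).

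In GIM5 the spliced level fell from 55.8, 53.4 and 41.3 RPM to 30.3, 24.7 and 17.2, a log2 change of -1.02 ± 0.25 (SE, edgeR adjusted p = 0.00526), a call that was lost with the drawn counts (-0.53, adjusted p = 0.110). The unspliced level of GIM5 rose by 2.27 on the log2 scale (adjusted p = 0.000342), from 12 reads over the WT libraries to 62. In CIN2 the spliced level fell by 1.57 on the log2 scale (edgeR adjusted p = 0.0145), with 87 spliced reads over the WT libraries and 32 over prp2-1. The call for CIN2 was lost with DESeq2 (adjusted p = 0.0519) and without WT replicate C (0.0552), and the change was -2.49 without prp2-1 replicate B. Its unspliced reads numbered 16 and 24, and their level did not pass the test (log2 0.45 ± 0.72, SE, adjusted p = 0.544). At these counts a rise of the unspliced level of CIN2 could not be told from no change.

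GIM4 was 1 of 6 introns with fewer unspliced reads in prp2-1. It had 1255, 1306 and 941 RPM of unspliced reads in WT A, B and C and 769, 647 and 684 in prp2-1 A, B and C. The groups did not overlap, and the log2 change was -0.70 ± 0.25 (SE, edgeR adjusted p = 0.00575), where the median of all tested introns was 3.02. Its total reads fell by the same amount (-0.70, adjusted p = 0.0056), since nearly all its reads were unspliced. The spliced reads of GIM4, 15 in WT and 1 in prp2-1, passed the test (adjusted p = 0.0342), a call that was lost with DESeq2 (0.117), with the drawn counts (0.144) and when any 1 library other than WT replicate A was left out (0.0622 to 0.120), with a log2 change of -3.57 overall and -5.39 without prp2-1 replicate C.

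In DYN2 intron 2 the unspliced level rose from 78.1, 111 and 96.2 RPM to 931, 844 and 1699, with prp2-1 C highest. The log2 change was 3.64 ± 0.29 (SE, edgeR adjusted p = 1.61e-32) and 3.65 in the first draw of 800000 reads. Spliced reads of DYN2 overlapped between the groups (log2 -0.16 ± 0.41, SE, adjusted p = 0.768), and fell without WT replicate C (log2 -0.59, adjusted p = 0.00986). Total reads rose in the full counts (log2 1.41 ± 0.37, SE, edgeR adjusted p = 0.0148), the 19th largest rise of 274 introns and the only rise among the members, against 19.7% of tested introns. In the first draw of 800000 reads the change of total reads was 0.14 and did not pass the test (edgeR adjusted p = 0.854). The other draws were not fitted. Between draws at that depth the spliced count of WT C ranged from 170 to 2327, so 1 draw does not speak for the rest. Total reads fell in 2 members, TUB3 and GIM4, against 23.7% of tested introns. Groups did not overlap in 4 lower members (TUB3, GIM4, GIM5 and CIN2), against 33.2%, and in 1 higher member, against 23.0%. The fall did not pass the test in GIM5 (log2 -0.60, edgeR adjusted p = 0.0593) or CIN2 (-1.01, adjusted p = 0.0643), but did in CIN2 without prp2-1 replicate B (-1.67, adjusted p = 0.00474). In GIM5 it passed without prp2-1 replicate A (-0.78, edgeR adjusted p = 0.0422) and at a mean of at least 50 reads (-0.60, adjusted p = 0.0445). Scaled to the introns over 98% unspliced in WT, it passed in GIM5 (adjusted p = 0.0103) and in CIN2 (0.0218).

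**Figure D4:**
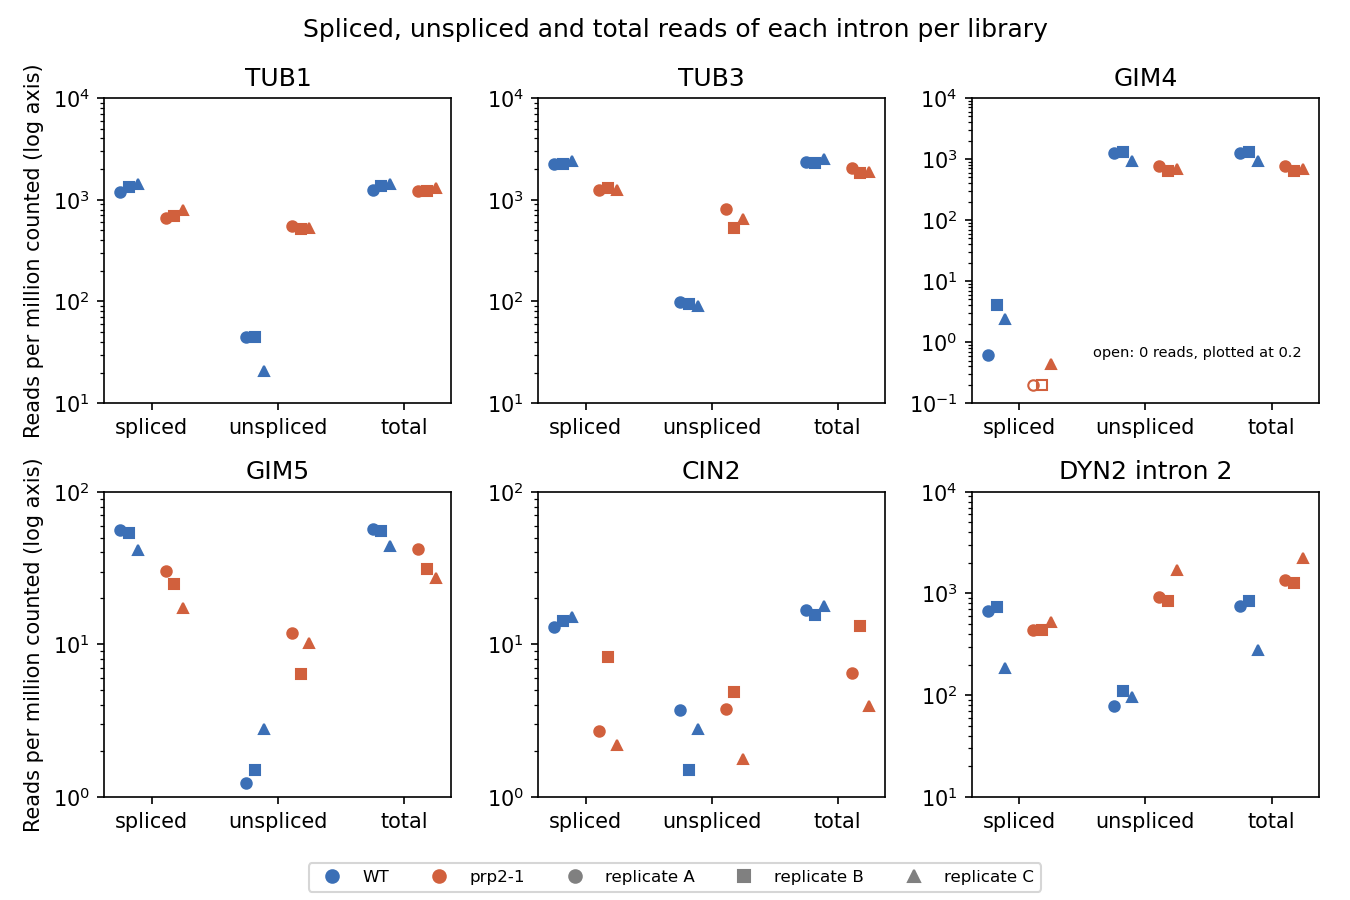
Spliced, unspliced and total reads in RPM (y axes, log) in each library for the 6 tested introns, WT in blue and prp2-1 in orange. In TUB1 and TUB3 spliced reads drop while unspliced reads rise, and in GIM4 unspliced and total reads drop together. In CIN2 spliced and total reads are lower in prp2-1, while its few unspliced reads overlap between the groups.

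Among all 274 introns the members lay in the middle to lower range of the ratio change. The share of introns with a smaller change was 52.7% for TUB1, 30.0% for TUB3, 28.6% for DYN2 intron 2, 24.5% for GIM5, 17.9% for GIM4 and 9.89% for CIN2. The intron with the most similar log2 ratios over the 6 libraries, by Euclidean distance, was RIM1 for both TUB1 (distance 1.35) and TUB3 (0.88). RIM1 went from 3.02% ± 0.601 to 34.9% ± 0.763 unspliced. YPR063C was next for TUB1 (1.40) and PMI40 for TUB3 (0.91). GIM5 lay closest to PFY1, the profilin gene (1.10), and to HOP2 intron 2 (1.29), and CIN2 to DBP2 (1.39) and YIP3 (1.48). GIM4 lay closest to MTR2 (2.67) and COX5B (2.70), which were also over 99% unspliced in WT, and DYN2 intron 2 to ERV1 (1.88) and then TAF14.

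**Figure D5:**
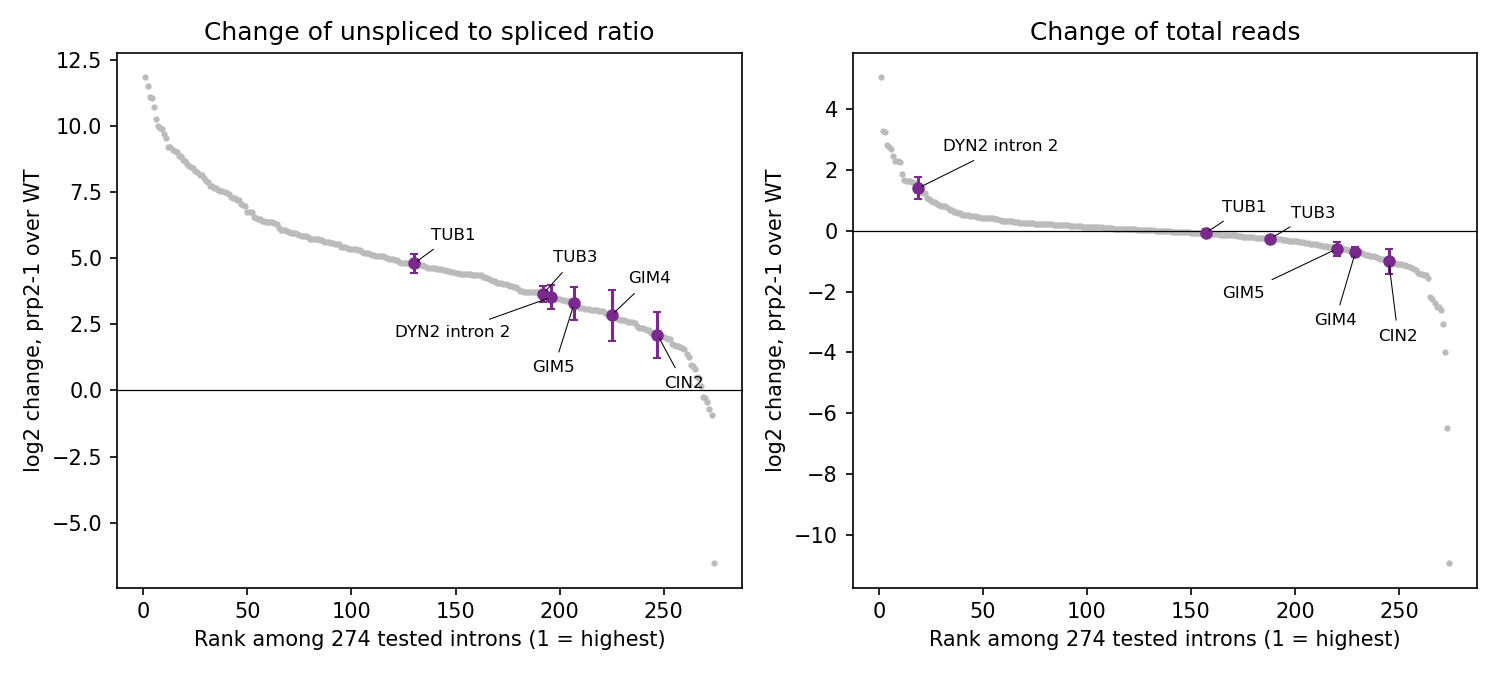
Grey points are all 274 tested introns ordered by log2 change (y axis), for the unspliced to spliced ratio (left) and for total reads (right), and purple points are the 6 members with their SE. All members are above 0 on the left, with TUB1 highest and CIN2 lowest, and on the right DYN2 intron 2 is the only member above 0.

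Other genes of the pathway could be followed only in part. None (0) of 39 listed genes for beta- and gamma-tubulin, tubulin cofactors, other prefoldin subunits, the chaperonin, dynein, dynactin and microtubule-associated proteins had a row in the table, and they were not analysed here. Of the related actin genes, 7 of 7 introns had a higher ratio in prp2-1 (edgeR adjusted p under 0.05), with a median log2 change of 4.39, where 93.4% of all tested introns were higher and the median was 4.64. They ranged from YSC84, an actin-binding protein gene (7.65), to COF1, the cofilin gene (2.66). All 4 tested introns of 5 listed kinetochore and chromosome segregation genes were higher, again beside 93.4% of all introns, with a median of 8.29, from MCM21, a kinetochore subunit gene (9.89), to GLC7, a protein phosphatase gene (4.57). MCM21 reached 99.2% ± 0.558 unspliced in prp2-1, while no tested member other than GIM4 exceeded 76.6% in any library.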

How the data were processed

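The 6 libraries were MPE-seq libraries of total RNA, each made from 10 µg, per the labels. The values are raw read counts, deposited by the authors as spliced (mature) and unspliced (premature) reads per intron and library. The submitters' processing notes name fastp 0.19.5, HISAT2 2.2.1, SAMtools and build R64. The read assignment rules and any handling of duplicates are unknown. The drawn table's size and seed headers were taken to be swapped, as its totals grow with the seed column. Intron positions came from the coding exons of RefSeq R64, and intron 1 was assumed to be the first transcribed.

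All tests were fitted over 274 introns with edgeR 4.0.16 in R 4.3.3 and adjusted by Benjamini-Hochberg over all of them. The ratio model held library, read type and, as the tested term, the interaction of read type with genotype. Levels were tested with library totals and TMM factors. Pairs of introns were compared on log2 ratios with a pseudocount of 0.5 by exact permutation. Alternatives used DESeq2 1.42.0, limma 3.58.1, other filters and scalings, drawn counts, omitted libraries and a replicate block. The fits were also run on simulated counts of fixed dispersion. Level fits used library totals without TMM factors there, so the TMM step was not tested. Members and lists were chosen with earlier results of these data known. All 7 members are named, with the 2 introns most like each and the extremes of each list.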

Additional observations from a re-analysis of the deposited data

How the results depend on the processing

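The ratio was called higher in all 6 members with limma at pseudocounts of 0.5 and 1 and with no filter, in 5 with DESeq2 (not CIN2) and in 4 in the first draw (not GIM4, with CIN2 untested). No called member change turned its direction under an alternative, but the uncalled spliced change of DYN2 intron 2 ranged from -0.59 to 0.13 (log2) when 1 library was left out. Without 1 library, 5 to 6 members had a higher ratio, 4 had more and 1 fewer unspliced reads, 1 had more and 1 to 2 fewer total reads, and 4 to 5 had fewer spliced reads. Of 322 values of single members under an alternative, 291 kept their status, whether called or not called, 25 lost a call and 6 gained one. Members with fewer total reads numbered 1 with RLE factors, with no filter and in the first draw, where 0 had more. At a mean of at least 50 reads they numbered 3. Scaled to the 13 introns over 98% unspliced in WT, GIM4 among them, 4 members had fewer total reads. This scaling moved the median log2 change of all introns by -0.29 for total, -0.32 for unspliced and -0.25 for spliced reads. Over all introns, it gave 27 with more total reads (54 before) and 2 with more spliced reads (17 before). Without 1 library, 32 to 50 introns had more total reads and 7 to 17 more spliced reads. A lower ratio was called for 0 introns, and for 1 with DESeq2, with limma and without WT C or prp2-1 C. Fewer spliced reads were called in 3 members with DESeq2 and in 2 in the first draw. CIN2 also had no value at a mean of at least 50 reads. The causes were not tested.

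Whether the replicate letters pair the libraries was not settled, and the main fits used no pairing. Deviations of log2 ratios correlated weakly, at 0.09, 0.20 and 0.27 for A, B and C, but all 6 libraries correlated best with their own letter. For total reads 3 of 6 did. With the replicate block, 6 members had a higher ratio and 1 had fewer total reads, against 2 without it, since TUB3 was lost (adjusted p = 0.0737). Members with fewer spliced reads went from 5 to 4, since GIM4 was lost (adjusted p = 0.0710). The block gave TUB1 minus TUB3 a shift of 1.17 (exact sign-flip permutation p = 0.25, the smallest 3 pairs allow). At 9 to 45 reads per library for CIN2, differences were limited by counting error.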

Other observations

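DYN2 intron 1, with at most 2 reads in any library of the full table, did have spliced reads in the authors' drawn table. The mean over 5 draws of 800000 reads was 3.2, 1.2 and 4.0 spliced reads in WT A, B and C and 3.4, 2.0 and 0.6 in prp2-1 A, B and C, where the full table lists 0 spliced reads in each. The mean drawn unspliced count was 0.2, 0.6 and 0.2 in WT and 4.0, 0.4 and 2.2 in prp2-1. Among 230 introns with at least 50 spliced reads on average, 5 had a drawn mean above the full count in some library, namely DYN2 intron 2, MRX20, YIP3, RPL42A and GCR1.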
